A study of Drosophila melanogaster with 2 samples.

Results

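The regions described here are the ChIP-seq regions of Gsc-eGFP that lie next to the centromeres of chromosomes 2 and 3 or on the Y chromosome. They were chosen by position alone. A region of the authors' list ranked by irreproducible discovery rate (IDR, a measure of how well a region repeats between 2 sets of calls) was taken if it started at or beyond base 22000001 of 2L or base 22900001 of 3L, ended at or before base 4200000 of 3R, or lay on the Y (dm6 build). These 4 windows held 9009 of the 121914 ranked regions: 795 on 2L, 3167 on 3L, 3839 on 3R and 1208 on the Y. Of the 9009 members, 52 were also in the authors' thresholded list, which held 1655 regions in all. As a check of the label, 79.4% of the members resembled an annotated transposable element, against 4.24% of the ranked regions on the rest of the arms.

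The assay was chromatin immunoprecipitation with an anti-GFP antibody in whole Drosophila melanogaster embryos aged 0 to 24 h, from a transgenic strain, labelled Gsc-GFP, that carries a Gsc-eGFP fusion. There was 1 group of 2 biological replicates. The files give no other condition, and no control library was used here. Chromatin was sheared by sonication to 200 to 800 bp. Whole embryos of a wide age range were used, with their sex not recorded, so every value is a mixture over cell types, stages and, for the Y, possibly both sexes. The files hold no read counts, so library depth is unknown.

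Pericentric sequence and the Y of Drosophila are heterochromatin, a compact chromatin state marked by methylation of a lysine of histone H3 and by the protein HP1. They hold few genes, many old copies of transposable elements, and satellites, which are short units repeated in tandem. Gsc, the fly homologue of Goosecoid, is a homeodomain transcription factor of the Bicoid-like class, whose members are known to prefer the word TAATCC, built on the homeodomain core TAAT.

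As a group, the thresholded members differed in GC content from thresholded regions on the rest of the arms. The sequence around the summit of the strongest thresholded member of each window is therefore shown first. It is the forward strand of the Release 6 genome (dm6 coordinates), up to 75 bp on each side of the summit, and capitals mark TAAT or its reverse complement ATTA.
chr2L:22404723-22404873: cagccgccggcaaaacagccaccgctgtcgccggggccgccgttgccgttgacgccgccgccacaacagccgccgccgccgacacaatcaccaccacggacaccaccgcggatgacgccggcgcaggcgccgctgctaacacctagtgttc
chr3L:27728298-27728448: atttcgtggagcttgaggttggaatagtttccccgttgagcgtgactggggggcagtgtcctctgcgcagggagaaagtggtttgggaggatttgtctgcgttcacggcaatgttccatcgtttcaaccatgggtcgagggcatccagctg
chr3R:2448728-2448878: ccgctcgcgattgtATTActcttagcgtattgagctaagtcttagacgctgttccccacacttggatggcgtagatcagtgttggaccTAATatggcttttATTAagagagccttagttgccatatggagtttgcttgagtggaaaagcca
chrY:975810-975960: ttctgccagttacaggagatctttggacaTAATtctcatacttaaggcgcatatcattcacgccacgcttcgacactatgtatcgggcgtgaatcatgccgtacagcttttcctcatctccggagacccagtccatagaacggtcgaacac
The 2L and 3L sequences held no such core, the 3R sequence held 3 and the Y sequence held 1. None of the 4 held TAATCC. The 2L sequence is from a gypsy8 retrotransposon copy and is rich in G and C, which make up 67.3% of the whole region.

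A second set is shown because these regions share 1 tandem repeat. They are the strongest thresholded region of this kind, the one whose sequence is most often repeated in the genome, and the strongest one with a score above the threshold that is not in the thresholded list. Capitals mark exact copies, on either strand, of the leading units of 11 bp (CCCGTACTGGT) and 12 bp (CCCGTACTCGGT).
chr3R:140311-140461: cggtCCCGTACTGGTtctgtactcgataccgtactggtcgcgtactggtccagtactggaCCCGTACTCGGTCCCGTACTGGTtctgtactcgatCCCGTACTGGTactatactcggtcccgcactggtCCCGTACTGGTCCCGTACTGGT
chr3R:42065-42215: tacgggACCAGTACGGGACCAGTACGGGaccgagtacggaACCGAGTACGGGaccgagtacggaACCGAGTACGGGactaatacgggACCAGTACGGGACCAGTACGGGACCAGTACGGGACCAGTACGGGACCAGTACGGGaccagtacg
chr3R:265815-265949: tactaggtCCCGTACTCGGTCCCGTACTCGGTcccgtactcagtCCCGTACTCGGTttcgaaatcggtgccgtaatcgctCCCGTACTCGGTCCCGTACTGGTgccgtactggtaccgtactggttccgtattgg
These units are those of the dodeca satellite, known from the centromeric region of chromosome 3.

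Fewer members reached the thresholded list than ranked regions elsewhere. The 52 thresholded members were 0.577% of all members (95% Wilson interval 0.440 to 0.756%), against 1.31% of the 108569 ranked regions on the rest of the arms 2L, 2R, 3L, 3R, 4 and X (1.24 to 1.38%) and 1.36% of all ranked regions of the series. No window was set on 2R, 4 or X, so any sequence next to their centromeres is counted with the rest of the arms. The 2 Mb of 2L, 3L and 3R next to the windows lay closer to the other arm sequence, with 51 of 4461 regions (1.14%, 0.871 to 1.5%). By window, 6 regions were thresholded on 2L, 16 on 3L, 20 on 3R and 10 on the Y. Their shares ran from 0.505% on 3L to 0.828% on the Y, and all 4 intervals overlapped.

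Both replicates showed the lower share in their own lists. Replicate 1 had 29 of 6933 members thresholded (0.418%) against 1.09% on the other arms, and replicate 2 had 31 of 6808 (0.455%) against 0.897%. The mean over replicates was 0.437 ± 0.0262% in the windows and 0.992 ± 0.135% elsewhere (SD, n = 2). The gap between the means was thus larger than the spread between replicates. No test over samples was made, as there are 2 replicates and 1 condition.

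Per Mb of assembled sequence, the windows held 635 ranked and 3.66 thresholded regions, and the other arm sequence held 884 and 11.5. The windows were therefore at 0.718 times the ranked density of the other sequence and at 0.317 times its thresholded density. The 3R window stood out with 919 ranked regions per Mb, above the other arm sequence, but only 4.79 thresholded regions per Mb. The Y had the fewest ranked regions, at 354 per Mb. How reads that match several places were treated was not stated, and its part in these densities was not tested.

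**Figure D1:**
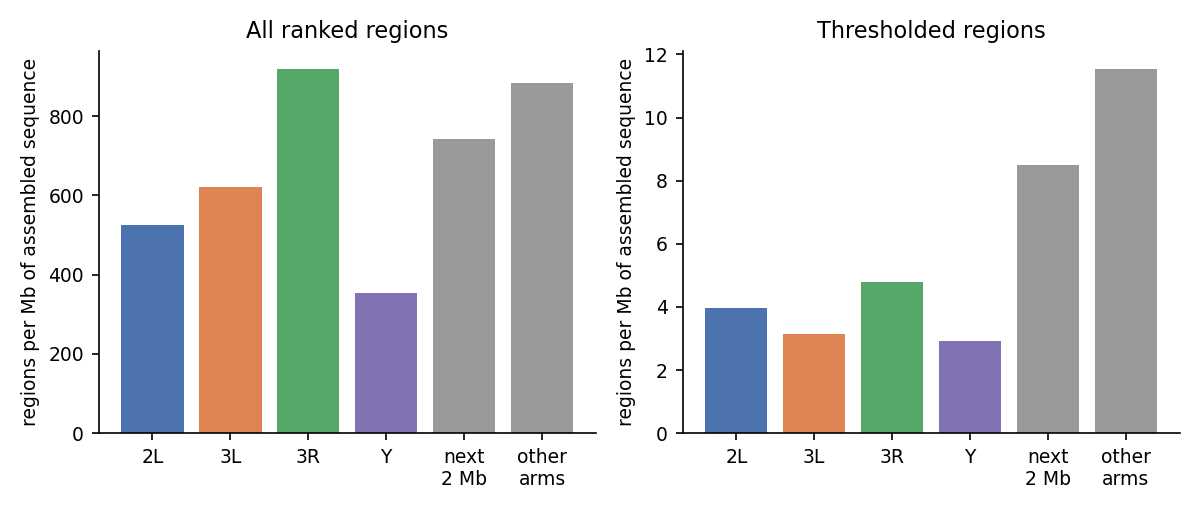
Regions per Mb of assembled sequence for all ranked regions (left) and for thresholded regions (right), in each of the 4 windows, in the 2 Mb next to the windows of 2L, 3L and 3R, and in the other arm sequence. The ranked density of 3R (919 per Mb) is above that of the other arms (884), while the thresholded density of every window (2.93 to 4.79 per Mb) is below that of the other arms (11.5).

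The score is the authors' scaled IDR, and the lowest score in the thresholded list was 830. In the windows the lowest thresholded score was 838, with a signal of 62.3, and the highest score below the threshold was 828, with a signal of 52.1. A further 20 members scored at or above the threshold but were not in the thresholded list: 2 on 2L, 3 on 3L, 14 on 3R and 1 on the Y. They were 27.8% (18.8 to 39.0%) of the 72 members at or above that score, which 1.6% of all ranked regions of the series reached. On the other arm sequence 110 of 1528 such regions were missing from the list (7.20%, 6.01 to 8.61%), and in the adjacent 2 Mb 1 of 52. These 20 members were not weak: their median signal was 128 against 74.7 for the 52, and 16 of them lay above the median of the 52. None of the 20 overlapped the thresholded list of either replicate. The step that kept them out was not stated.

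Signal was compared within a list only, since the authors' scale for it was not stated. The 52 thresholded members had a median signal of 74.7 (quartiles 62.3 and 101), against 98.5 (72.9 and 162) for thresholded regions of the other arm sequence, which is 1.32 times as high. In the replicates' own lists the medians were 49.7 and 47.6 in the windows and 72.2 and 69.0 elsewhere. The strongest thresholded member had a signal of 217, which 233 thresholded regions of the series exceeded. Over all ranked regions the 2 kinds of sequence were closer, with medians of 17.8 and 20.1. The Y members were the weakest as a group, with a median of 10.8, although the 2 strongest thresholded members were on the Y.

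**Figure D2:**
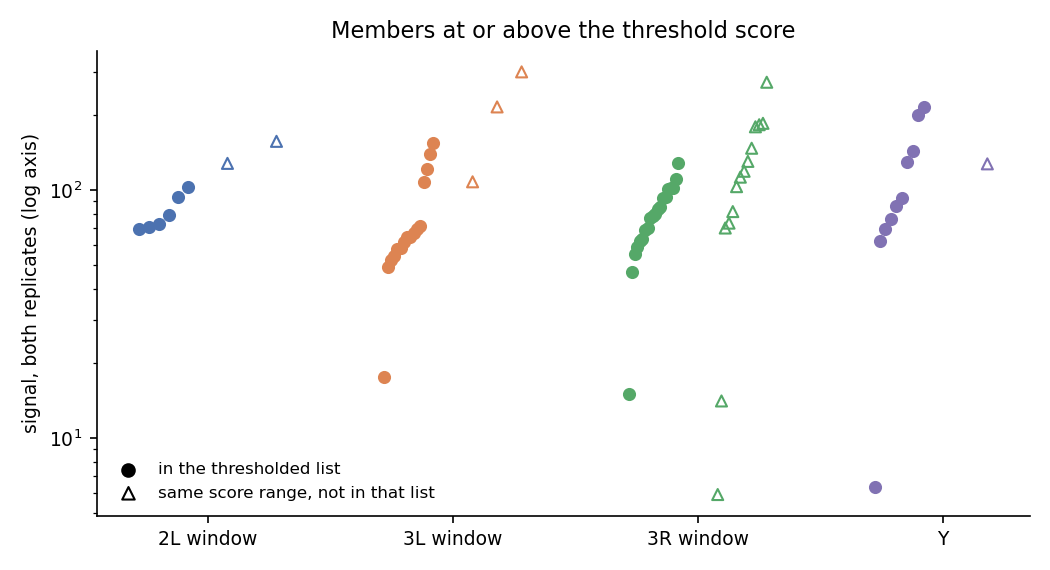
Signal in the joint list (log axis) for each member at or above the threshold score, by window. Filled circles are the 52 members of the thresholded list and open triangles the 20 outside it. On 2L, 3L and 3R the highest values (157, 299 and 272) belong to regions outside the list, and 3 thresholded members below 20 each overlap a stronger one.

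Each Y member below is given with the signal in replicate 1, then in replicate 2, of the overlapping region in that replicate's own list. The strongest Y member (Y, 975717 to 976052) measured 102 and 118, or 110 ± 10.8 (SD, n = 2). It resembled the DNA transposon 1360 and lay 4399 bp from the start of Su(Ste):CR42432, a copy of the Suppressor of Stellate repeats, which silence the X-linked Stellate genes in the male germ line and are known to carry a 1360 insertion. A second Y region (787587 to 787922) lay in an annotated copy of the LTR retrotransposon opus, and measured 114 and 87.8, or 101 ± 18.4. Another region in the same copy (788704 to 788810) measured 66.0 and 64.1, or 65.0 ± 1.35. The Y region at 989242 to 989577 measured 75.4 and 63.6, or 69.5 ± 8.33, and resembled R1A1, a retrotransposon that inserts into ribosomal RNA genes. All 4 regions were above the other 6 thresholded Y members in the joint list. The fifth (3258860 to 3259195) measured 35.7 and 60.4, matched no annotated element and lay 622 bp from the start of the noncoding gene CR46150.

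On 3L the 2 strongest thresholded members both had eIF4B, a translation initiation factor gene, as the nearest coding start site, at least 129898 bp away. The region at 27728205 to 27728540 measured 96.5 and 62.7, or 79.6 ± 23.9, and matched the non-LTR retrotransposon G over its full length at 97.9% identity. The region at 27650819 to 27651154 measured 71.3 and 60.3, or 65.8 ± 7.74, and resembled Doc2, another non-LTR retrotransposon. Next came a Cr1a-like region near the fatty acid synthase gene FASN3 (25795398 to 25795733), at 71.2 and 60.5, and a region near CG40228 (27093238 to 27093573), at 56.9 and 61.7. These 4 regions were in the thresholded lists of both replicates. The fifth (23459642 to 23459977, nearest to AGO3, which encodes a piRNA-binding Argonaute protein) lay in a gypsy8 copy and was in neither, at 35.2 and 38.4.

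On 3R the strongest thresholded member (2448635 to 2448970) lay in an intron of Myo81F, an unconventional myosin gene. It measured 71.7 and 47.9, or 59.8 ± 16.8, and matched the non-LTR retrotransposon G5A at 91.6% identity. Of the next 4, 2 were tandem arrays (140218 to 140553, at 60.6 and 52.7, and 174792 to 175127, at 50.6 and 46.6). The others were a region in an intron of Pzl, the gene of the mechanosensitive Piezo-like channel, at 63.2 and 37.6 (3021968 to 3022303), and one nearest to spok, a gene of ecdysone synthesis, at 71.7 and 45.3 (3384515 to 3384850). Replicate 1 was the higher replicate in all 5.

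On 2L the strongest thresholded member (22404630 to 22404965) measured 64.8 and 38.5, or 51.6 ± 18.6, in an annotated gypsy8 copy nearest to Marf1. With it, 2 more regions were nearest to Marf1, the regulator of oocyte maturation. They were a further region in the same gypsy8 copy (22395376 to 22395711), at 25.1 and 43.9, and a baggins copy (22390676 to 22391011), at 31.7 and 37.1. The other 2 of the 5 strongest were nearest to CG12567, a Max-like region at 45.4 and 51.8 (23229638 to 23229973) and a gypsy8-like region at 34.1 and 41.6 (23191646 to 23191981). The first of these was the only 2L member in both replicates' thresholded lists.

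The median log2 ratio of replicate 2 over replicate 1 was -0.07 over the 52 thresholded members (SD over members 0.68), against -0.25 (SD 0.61) over 1357 thresholded regions elsewhere with a value in both. Across the members the order of signals was loosely shared, with a Spearman rho of 0.473 over 52 regions of the same 2 libraries. It was 0.745 over the 1357 regions elsewhere, where the range of signals was wider. In all, 6 members differed by more than 2-fold. The largest differences were at a tandem array (3R, 41972 to 42307), at 13.5 and 48.9, at the Y region 3259060 to 3259395, at 35.7 and 11.1, and at a G-like region in Myo81F (3R, 1870159 to 1870494), at 34.0 and 12.2. The 2 regions named last each overlap another member, and one replicate region can stand for both.

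Only 13 of the 52 (25%, 15.2 to 38.2%) overlapped the thresholded lists of both replicates, against 627 of 1418 on the other arm sequence (44.2%, 41.7 to 46.8%). A further 16 were in the list of 1 replicate, 6 in that of replicate 1 and 10 in that of replicate 2. The remaining 23 (44.2%, 31.6 to 57.7%) were in neither, against 26.9% (24.7 to 29.3%) elsewhere. The intervals of windows and other sequence did not overlap for either share. The 13 were spread over the 4 windows and over 5 of the 6 sequence types described below.

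**Figure D3:**
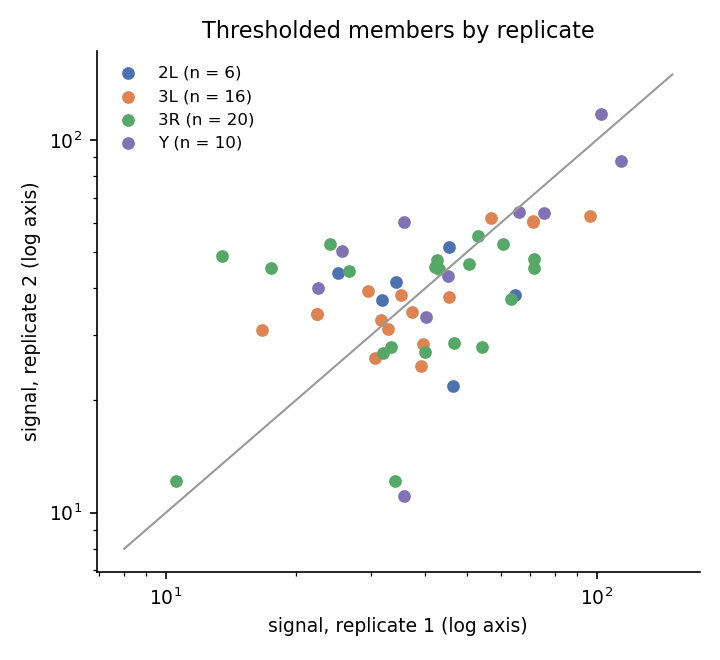
Signal of the 52 thresholded members in the list of replicate 1 against that of replicate 2 (both log axes), coloured by window; the line marks equal values. The strongest members lie near the line, and the points farthest from it are 3R and Y regions, such as the array at 13.5 and 48.9.

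Sequence composition separated the thresholded members from thresholded regions elsewhere. The 52 had a median GC content of 53.0% (quartiles 48.1 and 58.0%), against 39.3% (35.1 and 43.8%) for the 1418 thresholded regions of the other arm sequence. Every one of the 52, from 40.5 to 67.3%, lay above that median of 39.3%. Each replicate's own list gave the same order, with medians of 52.0 and 52.7% in the windows (52.3 ± 0.515%, SD, n = 2) and 37.2 and 37.5% elsewhere (37.3 ± 0.233%). All ranked regions had the opposite order, with 43.2% in the windows and 47.0% elsewhere.

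Among the members, the thresholded share was higher in each GC class than in the one below it from 40% GC on. None of 2908 members under 40% GC was thresholded (0 to 0.132%), and on the other arm sequence 789 of 17420 such regions were (4.53%). Between 45 and 50% GC the shares overlapped, at 0.620% (0.347 to 1.11%) in the windows and 0.511% (0.436 to 0.599%) elsewhere. At 55% GC and above, 21 of 687 members were thresholded (3.06%, 2.01 to 4.63%) against 71 of 13976 regions elsewhere (0.508%, 0.403 to 0.640%). Without the tandem arrays described below, 13 of 465 members of that class were thresholded (2.80%, 1.64 to 4.72%).

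**Figure D4:**
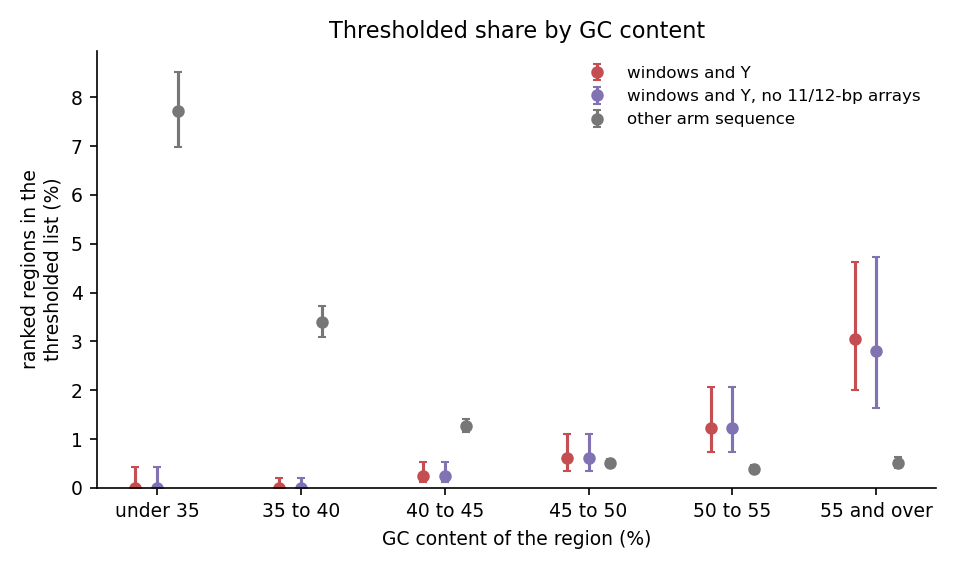
Share of ranked regions that are in the thresholded list, by GC content of the region, for the windows, for the windows without the arrays of 11-bp and 12-bp units, and for the other arm sequence. Bars are 95% Wilson intervals. The share climbs to 3.06% at 55% GC and above in the windows, and falls from 7.72% under 35% GC to 0.508% in the other arm sequence.

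The lower GC content elsewhere was seen inside and outside promoters. Thresholded regions of the other arm sequence had a median GC of 36.3% in promoters (within 500 bp of a coding start site) and 40.8% outside them, both below the 53.0% of the members. Those similar to a transposable element, 40 regions, had a median of 48.5%, close to the 51.5% of the 41 element-like members. Element-like regions were also thresholded at shares with overlapping intervals, 0.573% (0.423 to 0.777%) in the windows and 0.870% (0.639 to 1.18%) elsewhere.

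Almost every thresholded member was repeat-derived, as the windows themselves are. By similarity to the annotated insertions, 21 were non-LTR retrotransposons, 13 LTR retrotransposons, 4 DNA transposons and 3 copies of RR48323, an annotated element that the annotation gives no family name. Another 8 were tandem arrays and 3 matched nothing. The 41 element-like members were 78.8% of the 52 (66.0 to 87.8%), and 79.4% of all members were element-like. With the arrays left out, these shares were 93.2% (81.8 to 97.7%) and 81.4% (80.6 to 82.2%). Of the members like neither an element nor an array, 3 of 1629 were thresholded (0.184%, 0.0627 to 0.540%), and this interval overlaps that of the element-like members given above. Median identity to the annotated copy was 93.7% (77.7 to 100%), and 10 of the 41 had their summit in the annotated element itself.

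No family name was shared by more than 5 of the 41. gypsy8, an LTR retrotransposon, led with 5 of 136 ranked gypsy8-like members, 3 on 2L, of which 2 lie in 1 annotated insertion, 1 on 3L and 1 on 3R. The DNA transposon 1360 gave 4 of 301, all on the Y. The non-LTR element G gave 3 of 24, of which 2 overlap, and RR48323 gave 3 of 48. Cr1a, the non-LTR family with the most ranked members among those found, 616, gave 2. The telomeric retrotransposon HeT-A gave 1 of 77, on the Y (2831091 to 2831426). Outside the arrays and overlapping regions, 8 pairs among the 72 members at or above the threshold score aligned over 100 bp or more, for example 2 of the 1360-like Y members at 87.2% identity over 327 bp.

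**Figure D5:**
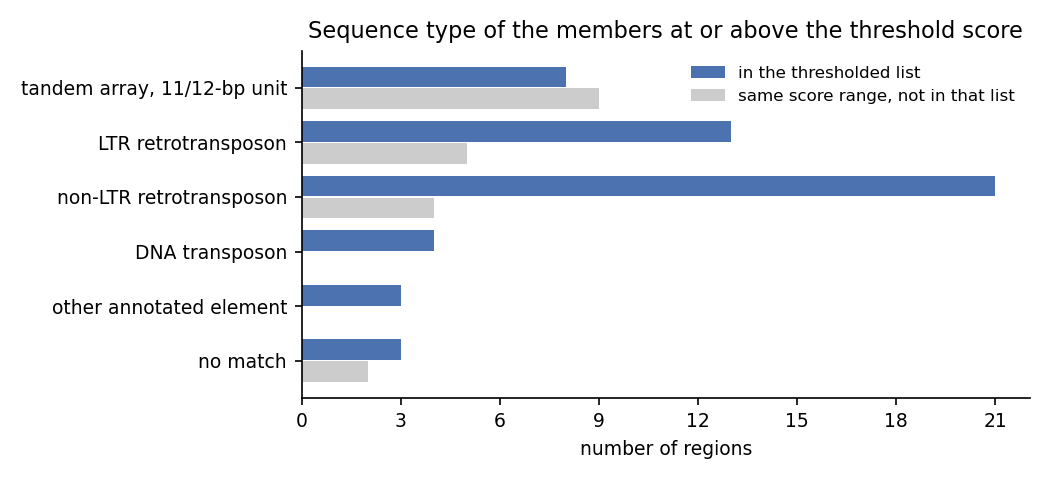
Number of members at or above the threshold score by sequence type, in the thresholded list (blue) and outside it (grey). Non-LTR retrotransposons lead in the list (21), and tandem arrays lead outside it (9).

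The tandem arrays were the one group with a common sequence. The 8 thresholded and 9 further arrays lay in the first 505363 bp of 3R, where all 17 regions at or above the threshold score were arrays. The end of that span was set by the last of these arrays. Arrays were common there: 407 ranked regions lay between the first and the last of the 17, and the 228 ranked arrays ran from base 1565 to base 944626. In the 17 arrays, between 54.8 and 81.5% of bases equalled the base 11 or 12 bp on, and their GC content was 57.7 to 64.3%. Of their 136 pairs, 135 aligned, at a median identity of 85.0%. The units are all but confined to this window in the assembled arms, which hold 6096 exact copies of the 11-bp unit, 6083 of them there, and 3496 of the 12-bp unit, 3482 of them there. An exact 11-bp unit was found in 0.199% of all ranked regions on the 7 arms, and a 12-bp unit in 0.190%. Of the 228 ranked members that were arrays, 17 (7.46%, 4.71 to 11.6%) reached the threshold score and 8 were in the thresholded list. Of all members 0.799% reached that score, and of all ranked regions of the series 1.6%. The units that define an array were read from members at or above the score, so the 7.46% is partly set by that definition.

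Signals of the arrays were high in both replicates for some and in 1 for others. The array at 265815 to 265949, the second strongest of the 72 members and not in the thresholded list, measured 129 and 151, or 140 ± 16.0 (SD, n = 2). That at 11293 to 11628, also outside the list, measured 104 and 87.7. Within the list, 173653 to 173988 measured 53.2 and 55.4, or 54.3 ± 1.56, while 141422 to 141757 measured 17.6 and 45.4, or 31.5 ± 19.6. The array with the lowest signal in the list, at 41972 to 42307, had the most repeated sequence: its 50-base words occurred a median of 236 times in the whole reference genome. The median of this copy number over the 8 was 5.5. The part of this repetition in their signal was not tested.

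In 15 of the 52 (28.8%, 18.3 to 42.3%) at least 90% of 50-base words occurred once in the whole reference genome. This held for 38.1% of all members and 97.5% of thresholded regions elsewhere. With words of 100 bases the share of the 52 was 59.6%. On the Y none of 10 was single-copy, and on 2L 4 of 6 were. Among the 20 members outside the list it was 1 (5%, 0.888 to 23.6%), and among the 110 such regions elsewhere 26 (23.6%, 16.7 to 32.4%). The median share of bases written in lower case as repeats in the reference was 16.4% for the 52 and 17.0% for thresholded regions elsewhere. This difference of -0.517 percentage points was -4.93 in the list of replicate 1 and -9.67 in that of replicate 2, and it changed sign under other settings, to 2.08 with 1 region kept where regions overlap. Its spread differed, with an upper quartile of 92.4% against 25.6%.

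None of the 52 lay in a promoter (0 to 6.88%), against 532 of 1418 thresholded regions elsewhere (37.5%, 35 to 40.1%). Among all members 26 lay in promoters (0.289%). By coding genes alone, 42 of the 52 were intergenic and 10 intronic, and none was in a CDS or UTR. Of the 42, 1 lay in the noncoding gene CR46150 on the Y. The median distance to the nearest coding start site was 119350 bp, against 1228 bp elsewhere and 96122 bp for all members. Introns held 19.2% of the 52 (10.8 to 31.9%) and 50.1% of all members.

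The 10 intronic members lay in 3 genes. Myo81F, which spans 567076 to 2532932 of 3R, held 8 thresholded of 1839 ranked regions. Pzl held 1 of 800, with 5 more at or above the threshold score outside the list, 4 of them gypsy6-like and within 3055676 to 3058112. CG40470 on 3L held 1 of 130. Of 115 protein-coding genes lying in the windows, 3 thus had a thresholded region within 500 bp of the gene, where 8.74% of the 13968 coding genes on the 7 arms did. By nearest coding start site, 12 members went to Myo81F, 7 to the Y gene ARY, 5 to Pzl, and 3 each to Marf1 and eIF4B, at distances that began at 36489 bp for Marf1 and at 241446 bp for Pzl.

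Of 21 listed symbols of genes known as heterochromatic, 17 were in the windows, 2 lay outside and 2 did not match the annotation. Of the 17, 10 had a ranked region within 500 bp, where 53 of all 115 coding genes in the windows did. A thresholded one was found at 2, Myo81F and Pzl, where 8.74% of all coding genes had one. The ribosomal protein genes RpL5 and RpL15, the G protein gene cta, the cohesin gene vtd, the histone methyltransferase gene Set1, the adhesion genes nrm and alpha-Cat had no ranked region. The highest signals at the others were 64.3 at nvd (ecdysone synthesis), 63.7 at Snap25 (vesicle fusion), 57.0 at Parp1 (poly(ADP-ribose) polymerase), 53.7 at AGO3, 52.3 at the homeobox gene scro, 51.3 at the RNA helicase gene Dbp80, 48.8 at spok and 38.8 at lt (vesicle trafficking). All of these lie below the median of 74.7 of the thresholded members, and nvd and Snap25 lie above the lower quartile of 62.3. None of these genes had a region at or above the threshold score, which largely fixes that order.

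Of 12 listed Y symbols, 11 matched, and all 11 had ranked regions, where 53 of all 115 coding genes in the windows did. None of the 11 had a thresholded one, where 8.74% of all coding genes did, a share at which 0 of 11 is not unusual. The male fertility genes kl-2, kl-3 and kl-5, which encode sperm dynein heavy chains, held 61, 115 and 89 ranked regions with highest signals of 28.4, 27.6 and 23.7. Ppr-Y held 58, with 1 Dm88-like intronic region (1672252 to 1672587) at 127 in the joint list and 50.4 and 83.8 in the replicates, outside the thresholded list. ARY, nearest to 7 thresholded members, had a highest signal of 7.68 within 500 bp, and its members lay 85325 bp away or more.

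The word TAATCC or its reverse complement was within 50 bp of the summit in 1 of the 52 (1.92%, 0.340 to 10.1%), a Dm88-like region of 3L (27727662 to 27727997) at 45.4 and 37.8. It was in 2.86% of all members, in 3.74% (2.87 to 4.86%) of thresholded regions elsewhere and in 2.92% of ranked regions elsewhere. All 4 intervals overlap. TAATTA, another homeodomain word, was in 0 of 52 (0 to 6.88%) and in 8.18% (6.86 to 9.72%) of thresholded regions elsewhere. It was in 3.31% of all members and 4.67% of ranked regions elsewhere. The interval of the 52 overlaps that of thresholded regions elsewhere and holds both of the last 2 shares. GAGAG was in 8 of 52 (15.4%, 8.01 to 27.5%) and in 14.5% of all members. CAGGTA was in 2 of 52 (3.85%, 1.06 to 12.98%) and in 3.01% of all members. Elsewhere it was in 1.90% of thresholded and 2.19% of ranked regions. The CAGGTA interval of the 52 holds all of these other shares. Of all 6-base words, CTCCAG (reverse complement CTGGAG) was in most of the members without arrays and overlaps, 8 of 41 (19.5%), with 5.68% of unthresholded members and 2.33% of thresholded regions elsewhere, a word chosen after its values were seen. Neither AATAT nor AAGAG, the units of 2 common short satellites, occurred 3 times in a row in any of the 52 (0 to 6.88%). Each did in 3 of 9009 members and in 5 of 108569 ranked regions elsewhere. At such low shares 0 of 52 is not unusual.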

How the data were processed

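Regions came from ChIP-seq of 2 biological replicates of 1 group, on the dm6 build per the labels. The authors deposited an IDR-ranked and a thresholded list for each replicate. For both together they gave 2 ranked lists, a thresholded list and a conservative thresholded list of 1575 regions. The conservative list held 34 of the 52 thresholded members. The authors made the score of a region by scaling its IDR. The signal of a region was computed by the authors on a scale that the labels do not give. The authors also gave a −log10 IDR per ranked region, which served to look up the threshold (2.00, an IDR of 0.0100). Aligner and peak caller: not given in the sources used here. One joint ranked list holds all 1655 regions of the thresholded list and was used, and the other holds 1621. Another 16 columns of the joint ranked lists, which name no replicate, were left out. Replicate values are the signal of the region with the longest overlap (at least 1 bp) in a replicate's own ranked list. No p-value was computed. Wilson intervals (95%) cover counting error over regions only, and regions are not replicates.

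Genes and elements came from Ensembl release 115 and sequence from Release 6 of the genome. Similarity to annotated elements was an alignment by blastn 2.17.0 (E value at most 1e-05, at least 100 bp). A region was called a tandem array if at least 50% of its bases equalled the base 11 or 12 bp on and it held an exact leading unit. The leading units were the most frequent 11- and 12-base words in the members at or above the threshold score that met the 50% rule. Copy number was counted for 36-, 50- and 100-base words over the whole reference genome, not the 7 arms alone. It was counted with Python 3.11.15, NumPy 2.4.6 and pandas 2.3.3, and checked on simulated data. Named were the 5 strongest thresholded regions per window, the 3 with the largest replicate ratio, genes holding or nearest to them or to 3 or more members, and the listed genes. The members, lists and windows were chosen with earlier results of these data known. Element types, arrays and GC classes were set after seeing the sequences.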

Additional observations from a re-analysis of the deposited data

How the results depend on the processing

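Of 82 alternative values, 48 kept their direction and moved by less than the spread used to judge them (that between replicates, except for the replicate ratio and a count), 31 kept their direction and moved further, and 3 changed sign. The share of members in the thresholded list, 0.577%, was 0.418 to 0.455% in the lists of single replicates, 0.799% by score alone, 0.677% with 1 region kept where regions overlap, 0.538% without the Y and 0.501% without the tandem arrays. The log2 ratio of that share to the other arm sequence, -1.18, was -0.82 by score alone and stayed below 0 in every alternative run. The log2 signal difference, -0.40, was -0.54 in the list of each replicate, -0.48 in the conservative list, -0.39 without overlaps, -0.37 with windows drawn in by 500 kb, -0.47 without the Y, -0.22 against the next 2 Mb and -0.45 without arrays. The GC difference, 13.7 percentage points, was 14.8 to 15.2 in single replicates, 11.9 in the conservative list and against the next 2 Mb, 14.3 without overlaps, 14.0 with windows drawn in, 15.2 without the Y and 12.4 without arrays. The difference in lower-case bases, -0.517 percentage points, had no stable sign: it was 2.08 without overlaps and with windows drawn in, 5.14 against the next 2 Mb, -9.67 to -4.93 in single replicates, -6.10 without the Y, -7.50 over 100 bp around the summit and -8.18 without arrays; the cause was not tested. The single-copy share, 28.8%, rose to 59.6% with words of 100 bases. The element-like share, 78.8%, was 64.5 to 82.8% in single replicates and 93.2% without arrays, which by construction removes regions that match no element. The GC and element-like shares and the settings without arrays were added after seeing the data. Promoter share and TAATCC share did not move beyond that spread in any alternative run, and the 13 members in both replicates' lists stayed 13. The median replicate ratio, judged by its SD over members instead, stayed between -0.07 and -0.06 on the log2 scale. No paired analysis was possible because there is 1 group. With no read counts, depth sets no limit that can be given.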

Other observations

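Sequence outside the 7 arms also held ranked regions. On unplaced contigs 126 of 2675 ranked regions scored at or above the threshold, with signals of up to 3549, and on Y contigs 45 of 598, up to 334, and none of either was in the thresholded list. On X contigs all 185 of 1063 that reached the score were in the list, with signals of up to 1266. These regions are part of every whole-series value above, such as the 1.36% in the thresholded list and the 1.6% at or above the score. They are in no value for the other arm sequence.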
